A study of Homo sapiens with 48 samples.

Results

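The libraries described here are the 8 total cytoplasmic RNA libraries of SW480 cells that carry a non-targeting shRNA (shCTRL), out of 48 libraries in the series. They were chosen by their labels: 4 were -DOX and 4 were +DOX. SW480 is a human APC-mutant colorectal cancer (CRC) line. All shCTRL cells, -DOX cells included, carry a lentiviral doxycycline-inducible cassette for this shRNA. The +DOX cells received 1 µg/ml doxycycline (DOX) for 5 days and the -DOX cells received DMSO. The 4 replicates of each group were grown in separate weeks, so each week holds 1 -DOX and 1 +DOX library. The same lysates also gave ribosome-protected fragments (RPFs, 8 libraries). Parallel lines carry inducible shRNAs against the eIF2Bα subunit (shEIF2B1) or the eIF2Bδ subunit (shEIF2B4), each with 8 total RNA libraries of its own, -DOX and +DOX.

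DOX is a tetracycline antibiotic. It switches on the inducible promoter that drives the shRNA, and tetracyclines are known to slow protein synthesis on mitochondrial ribosomes, which resemble those of bacteria. Loss of mitochondrial function is one of several stresses that can phosphorylate eIF2α and raise translation of ATF4, a transcription factor that switches on genes for amino acid supply. A hairpin RNA without a target is commonly used to separate these general effects from those of a knockdown. The drug, the hairpin and any other product of the inducible promoter came on together in these cells and cannot be told apart. The cassette itself was present in both groups. In bulk RNA, fewer cells in a given state and less RNA per cell cannot be told apart either.

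The deposited values are regularized log2 values, a DESeq2 scale that pulls changes of weakly covered genes towards 0. Differences below are +DOX minus -DOX in these log2 units. Read counts were not given, so the depth behind each value is unknown. Library medians lay between 7.89 and 7.92. The standard deviation over genes in weeks 1 to 4 was 2.11, 2.12, 2.12 and 2.17 in -DOX. In +DOX it was 2.11, 2.07, 2.08 and 2.14, so the spread was narrower in weeks 2 to 4. Of 12 colorectal epithelial markers, 7 were in the table. KRT8 and KRT18, the keratins of simple epithelia, had mean log2 values of 12.4 and 13.4, and EPCAM, an epithelial adhesion protein, 9.36. CDH1 and ELF3 were close to the lower end at 4.06 and 3.74. VIL1, CDX1, LGALS4, CEACAM5 and CEACAM6 were not among the genes listed. Of 13 fibroblast, leukocyte and endothelial markers only CD68 was listed, at 4.98, and it differed by 0.18 (limma adjusted p = 0.337).

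In shCTRL cells, 531 of 11947 genes (4.44%) were called changed on DOX at a limma adjusted p under 0.1, with the week as a block. Of these, 271 were higher (2.27%) and 260 were lower (2.18%). The changes were small. The median absolute change of the called genes was 0.33, against 0.089 over all genes, and 3 genes exceeded 1 (LOXL4, C21orf91 and IFITM1). Among called genes, 39 rose by over 0.5 and 14 had a change below -0.5. The direction was the same in 4 of 4 weeks for 470 of the called genes and in 3 of 4 weeks for the other 61, while 25.4% of all genes kept 1 direction in all 4 weeks. The +DOX and -DOX values did not overlap for 287 called genes, against 7.05% of all genes. The calls were made on these same libraries, so both counts describe the called genes and test nothing.

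The size of the response depended on the week. Week 1 showed the smallest changes: the genes called higher had a median difference of 0.15 in week 1, 0.43 in week 2, 0.47 in week 3 and 0.35 in week 4. For the genes called lower these medians were -0.13, -0.35, -0.47 and -0.35. These genes were called on the same libraries, so the medians describe the weeks and test nothing. In the other lines, whose libraries took no part in the calls, the 271 raised genes had median differences of 0.36, 0.50, 0.58 and 0.41 in weeks 1 to 4 of shEIF2B1 and 0.26, 0.43, 0.41 and 0.40 in shEIF2B4. Week 1 was thus the lowest of the 4 in each line. The number of called genes moved with the weeks included. It was 2452 without week 1, 166 without week 2, 3 without week 3 and 12 without week 4, and 9 without the block. The week 3 libraries join the reads of 2 sequencing runs.

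**Figure D1:**
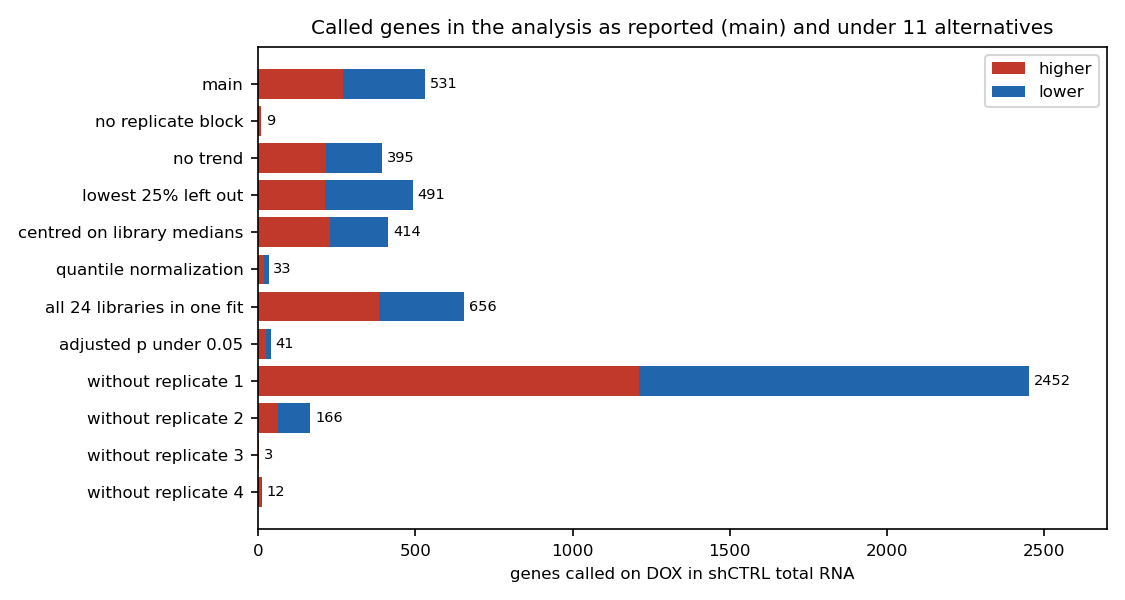
Genes called in shCTRL total RNA on DOX (x axis, number of genes; red higher, blue lower) in the analysis as reported, named main, and under 11 alternatives (y axis). The count was 531 as reported, 9 without the replicate block, 33 after quantile normalization, and between 3 and 2452 when 1 replicate, that is 1 week, was left out.

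Principal components of the 500 most variable genes placed the DOX libraries apart only in part. The first component held 38.2% of the variance. The +DOX libraries scored 3.39 ± 5.31 and the -DOX libraries -3.39 ± 2.84 (mean ± SD, n = 4 each; two-sided exact permutation test, p = 0.0857). In week 1, the +DOX score was -0.57 and the -DOX score -0.081, so these libraries lay side by side. The second component held 35.1% and set both week 3 libraries apart, at -10.2 and -5.36, from the other 6, which scored between 0.96 and 4.78. Its exact p for DOX was 0.486. With the mean of each week removed, the first component held 71.2% of the variance, and the +DOX library scored higher in 4 of 4 weeks. Scores within a week are then mirror images, so the signs of the 4 pairs were permuted (two-sided exact p = 0.125, the smallest that 4 pairs allow).

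Regulatory sequence is shown first for the genes whose values are described below. Of 58 histone genes in the list used here 35 were called lower on DOX. The promoters of H2BC18, H2BC14 and H4C14 are given for comparison, since these genes were among the 15 largest falls. The sequences come from RefSeq on GRCh38.p14 and run 5′ to 3′ on the gene's strand, up to the annotated start for H2BC14 and H4C14. The H2BC18 stretch ends 4 bases before its start. Capitals mark the octamer ATTTGCAT, a known element of H2B promoters. H2BC18 lies on the minus strand of chromosome 1 (chr1:149812374-149812490). H2BC14 lies on the plus strand of chromosome 6 (chr6:27814902-27815021), and H4C14 on the plus strand of chromosome 1 (chr1:149832537-149832656).
H2BC18: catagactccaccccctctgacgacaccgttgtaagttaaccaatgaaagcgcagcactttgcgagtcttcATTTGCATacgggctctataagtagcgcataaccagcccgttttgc
H2BC14: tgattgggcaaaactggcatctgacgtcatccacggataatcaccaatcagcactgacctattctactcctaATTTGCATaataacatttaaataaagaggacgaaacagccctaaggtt
H4C14: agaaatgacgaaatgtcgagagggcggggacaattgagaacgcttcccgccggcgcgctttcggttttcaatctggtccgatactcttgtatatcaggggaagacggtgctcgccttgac

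The octamer began 49 bases before the start of H2BC18 and 48 bases before that of H2BC14, and the letters were not in the H4C14 window. Over 250 bases upstream on both strands, 12 of 15 measured H2B genes held it (80.0%), against 1.95% of the 9685 genes of the table with a promoter sequence. Of the 10 H2B genes called lower 9 held it. Of the 214 called lower genes with a promoter sequence 18 held it (8.41%), and 15 of these were histone genes. A match is a description of letters only.

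Shorter stretches are shown for a pair of raised genes. In ASNS (chr7:97872458-97872487, minus strand), capitals mark TGATGNAA, the C/EBP-ATF composite element that ATF4 is known to bind, which began 68 bases before a RefSeq start. It was found within 250 bases upstream of 2.26% of the table's genes with a promoter sequence. In IFITM1 (chr11:313996-314025, plus strand), capitals mark 2 copies of AANNGAAA, the core of interferon regulatory factor elements, 38 and 27 bases before the start. This loose motif was in 19.1% of those genes. It was not particular to raised genes: 24.8% of the called lower genes and 59.6% of the histone genes with a promoter sequence held it. The H4C14 stretch above also holds it, unmarked, 62 bases before the start.
ASNS: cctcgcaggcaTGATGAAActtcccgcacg
IFITM1: gcaggaAATAGAAActtAAGAGAAAtacac

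LOXL4, C21orf91 and IFITM1 stood out among the rises: they changed most and were called under each of the 11 alternatives, from every left-out week to quantile normalization. LOXL4 (chromosome 10, 98247690 to 98268250, GRCh38) encodes a lysyl oxidase that crosslinks collagen and elastin. Its log2 values in weeks 1 to 4 were 9.32, 9.12, 8.87 and 8.95 in -DOX and 10.01, 10.66, 10.66 and 10.41 in +DOX. It rose by 1.37 (standard error 0.13, 2.59-fold on this scale, limma adjusted p = 0.00144). The groups did not overlap, and week 1 showed the smallest rise.

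C21orf91 (chromosome 21, 17788967 to 17819386), a gene of poorly described function, had the smallest p of all. Its values were 9.59, 9.50, 9.57 and 9.72 in -DOX and 10.64, 11.16, 10.90 and 10.88 in +DOX, a rise of 1.30 (standard error 0.091, limma adjusted p = 7.35e-05). Its adjusted p stayed between 8.17e-08 and 0.000746 over the alternatives. IFITM1 (chromosome 11, 313506 to 315272) encodes an interferon-induced membrane protein that blocks virus entry. IFITM1 was at 10.42, 10.41, 10.57 and 10.10 in -DOX and 10.98, 11.99, 12.02 and 11.26 in +DOX. The rise was 1.19 (standard error 0.13, limma adjusted p = 0.00343), also without overlap. Its annotation overlaps that of its close relative IFITM2, so reads may be split between them. IFITM2 was itself called higher, by 0.40, and was called under 4 of the 11 alternatives.

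Each of these 3 genes also rose in the RPFs of shCTRL and in total RNA of both other lines. In RPFs, a second measure of the same lysates, the changes were 1.58 for LOXL4, 1.52 for C21orf91 and 0.79 for IFITM1 (limma adjusted p = 0.00194, 0.00194 and 0.0333). In shEIF2B1 they were 1.49, 0.99 and 1.29, and in shEIF2B4 0.92, 1.17 and 0.82. The test of the difference between lines, the interaction of shRNA and DOX, gave limma adjusted p values between 0.238 and 0.855 for these genes. The rises were therefore not limited to the line with the non-targeting hairpin.

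**Figure D2:**
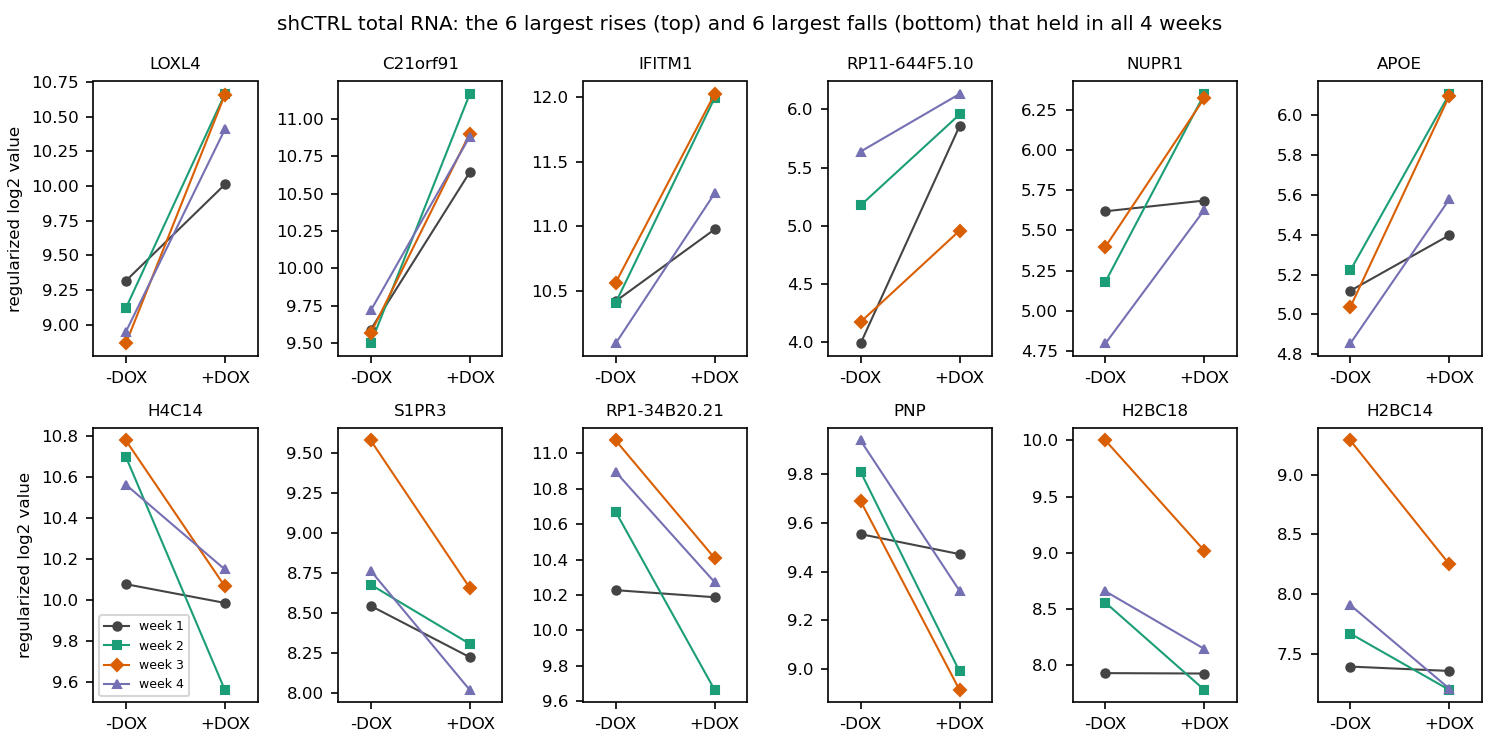
Regularized log2 values (y axis) of the 6 largest rises and the 6 largest falls that kept their direction in all 4 weeks, in -DOX and +DOX shCTRL total RNA (x axis), with 1 line and colour per week. LOXL4, C21orf91 and IFITM1 rose in every week without overlap of the groups, and H4C14, H2BC18 and H2BC14 were nearly level in week 1.

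The other large rises were smaller and rested more on single weeks. NUPR1, a stress-induced chromatin protein, was at 5.62, 5.18, 5.40 and 4.80 in -DOX and 5.69, 6.35, 6.32 and 5.63 in +DOX (change 0.75, limma adjusted p = 0.0458). APOE, the lipoprotein component that carries cholesterol, was at 5.12, 5.22, 5.04 and 4.85 in -DOX and 5.40, 6.10, 6.10 and 5.58 in +DOX (change 0.74, limma adjusted p = 0.0218). For both genes the +DOX values lay above all -DOX values, and week 1 moved least.

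CEMIP, which takes part in hyaluronan breakdown, went from 7.45, 7.77, 7.77 and 7.81 to 8.40, 8.08, 8.73 and 8.50, a rise of 0.73 (limma adjusted p = 0.0200), and here week 1 moved about as much as week 3. EEF1A2, a translation elongation factor of muscle and nerve, went from 7.22, 7.14, 7.25 and 6.71 to 7.56, 7.99, 8.33 and 7.36, a rise of 0.73. The limma adjusted p of EEF1A2 was 0.0205. SLC25A36, a mitochondrial carrier of pyrimidine nucleotides, rose by 0.59 and was called under 10 of the 11 alternatives, as was CEMIP. Its values were 10.82, 10.59, 10.50 and 10.79 in -DOX and 11.18, 11.19, 11.27 and 11.40 in +DOX.

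Further members of the 15 largest rises were PLPP1, a lipid phosphate phosphatase (0.60), the FXYD family ion transport regulator FXYD6 (0.64), the LIM domain protein FHL1 (0.59) and N4BP2L1 (0.59). A transcript listed as RP11-644F5.10 rose by 0.98 (limma adjusted p = 0.0333), from 3.99, 5.18, 4.18 and 5.64 to 5.86, 5.96, 4.96 and 6.13, so its groups overlapped. GENCODE v29 names it BLOC1S1-RDH5, a readthrough that overlaps BLOC1S1, ITGA7 and RDH5, and its value is therefore uncertain. Among called genes with 1 week against the direction, the largest rises were SLC16A4 at 0.74, FAM20C at 0.67 and SLC2A12 at 0.61. These were picked after their values were seen.

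Genes that ATF4 and CHOP are known to switch on lay mostly above 0. Of 28 in the list 5 were called higher (17.9%, against 2.27% of all genes) and none lower, and 25 had a change above 0. The list's median change was 0.19, against -0.0034 over all genes. ASNS, asparagine synthetase, rose by 0.64 (standard error 0.087, limma adjusted p = 0.0144), from 10.23, 10.07, 9.55 and 9.47 to 10.57, 10.63, 10.39 and 10.31, without overlap. KLHL24, an adaptor of a ubiquitin ligase, rose by 0.52 and NIBAN1, a stress-induced regulator of translation, by 0.51. JDP2, a bZIP transcription repressor, rose by 0.37. NUPR1 was the fifth called member.

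The list's medians by week were 0.035, 0.035, 0.38 and 0.35, so weeks 3 and 4 carried it. Without week 3 none of its members was called and without week 4 only 1, while 15 were called without week 1. Over all 11947 genes, 1212 were called higher without week 1. ATF4 mRNA itself differed by 0.027 (limma adjusted p = 0.863), with values of 12.20, 12.09, 12.15 and 12.03 in -DOX and 12.10, 12.12, 12.24 and 12.11 in +DOX. DDIT3, which encodes CHOP, differed by -0.057 (limma adjusted p = 0.695), PPP1R15A, the stress-induced cofactor of eIF2α dephosphorylation, by -0.12 (0.457) and ATF3 by -0.010 (0.977). None of these 4 was called in total RNA. In RPFs ATF4 differed by 0.32 (limma adjusted p = 0.121), DDIT3 by 0.019 (0.939), ATF3 by 0.17 (0.346) and PPP1R15A by -0.37 (0.0720). PPP1R15A was thus called lower in RPFs. Of the 28 list members 8 were called higher in RPFs and 1 lower, against 5.23% and 4.62% of all RPF genes. In total RNA of shEIF2B1 and shEIF2B4, with the knockdown added, 23 and 24 members were called higher, against 17.5% and 18.1% of all genes. The list's medians there were 0.65 and 0.81. None was called lower in shEIF2B1 and 1 in shEIF2B4. The response differed from that of shCTRL for 16 and 18 of the 28 members, by the interaction test. Over all genes this test called 3.47% for shEIF2B1 and 5.4% for shEIF2B4.

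In the list of serine, one-carbon, asparagine and proline synthesis, 3 of 17 were called higher (17.6%, against 2.27% of all genes) and none lower. The list went both ways, with 11 members above 0, 6 below 0 and a median of 0.089. Beside ASNS these were the mitochondrial folate enzyme ALDH1L2 (0.47, limma adjusted p = 0.0477) and ASS1, which makes argininosuccinate from citrulline and aspartate (0.38, limma adjusted p = 0.0664). GDF15, a secreted signal of mitochondrial and other stress, rose by 0.54 (limma adjusted p = 0.0910), in 3 of 4 weeks. None of the 3 calls of the amino acid list was made without week 3.

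Genes of adhesion and matrix lay mostly above 0. In the list of integrins, laminins and collagens, which also holds SPARC, 6 of 29 genes were called higher (20.7%, against 2.27% of all genes). None of the list was called lower, and 26 lay above 0, with a median of 0.19. ITGAE, an integrin subunit outside the list, was called lower (-0.28). LAMB1, a laminin chain of the basement membrane, rose by 0.41, and ITGA3, an integrin subunit that binds laminin, by 0.36. SPARC, a matrix glycoprotein, rose by 0.38. Of 15 metalloproteinases and their inhibitors, 4 were called higher (26.7%): the membrane-bound proteases ADAM9 (0.34) and MMP14 (0.33) and the inhibitors TIMP3 (0.32) and RECK (0.29). None was called lower in this list, whose median was 0.15. The limma adjusted p values of these 7 genes lay between 0.0730 and 0.0988.

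In RPFs, 10 of 28 integrins, laminins and collagens and 6 of 15 metalloproteinases and inhibitors were called higher, against 5.23% of all RPF genes. By week, the median of the adhesion list was -0.026, 0.25, 0.34 and 0.19. Without week 2, week 3 or week 4 none of its members was called, and 18 were called without week 1. At that last setting 1212 of all 11947 genes were called higher. SPARC did not move the same way in every line. It differed by -0.025 in shEIF2B1 and by -0.21 in shEIF2B4, and the shEIF2B4 response lay 0.58 below that of shCTRL (limma adjusted p of the difference = 0.0124). SPARC was named by its rise in shCTRL, whose libraries also enter this test.

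Of 39 autophagy and lysosome genes, 4 were called higher (10.3%, against 2.27% of all genes) and none lower, with a median of 0.048. They were the protease CTSB (0.47), the saposin precursor PSAP (0.37), progranulin GRN (0.35) and the ATG8 family member GABARAPL1 (0.33). Of 34 interferon-stimulated genes other than IFITM1 and IFITM2, 3 were called higher (8.82%) and none lower, with a median of 0.098. These were HLA-B (0.50), the RNA sensor DDX58 (0.38) and the transcription factor STAT2 (0.29). HLA-B was at 9.09, 8.89, 9.02 and 8.91 in -DOX and 9.10, 9.74, 9.76 and 9.33 in +DOX, so it was level in week 1. Without week 2, 3 or 4 no gene of either list was called.

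Histone genes formed the largest group of falls. Most genes of the list lie in the histone gene clusters, whose genes are transcribed in S phase and make mRNAs that mostly lack poly(A) tails. Of 58 measured, 35 were called lower (60.3%, against 2.18% of all genes) and none higher, and 56 lay below 0. Their median change was -0.33. All core histone kinds took part: 9 of 13 H2A, 10 of 15 H2B, 9 of 13 H3 and 7 of 12 H4 genes were called. None of the 5 H1 genes was called. Of 44 genes on chromosome 6, where the major cluster lies, 24 were called, and of 10 on chromosome 1, 9 were called. H3C14 and H3C15 hold the same values in every library, so the 35 calls are 34 profiles, and reads of near-identical copies may be split between genes.

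H4C14 was at 10.08, 10.70, 10.78 and 10.56 in -DOX and 9.99, 9.56, 10.07 and 10.15 in +DOX, a change of -0.59 (standard error 0.13, limma adjusted p = 0.0661). H2BC18 went from 7.93, 8.56, 10.00 and 8.66 to 7.93, 7.78, 9.02 and 8.15 (change -0.57). H2BC14 went from 7.39, 7.67, 9.29 and 7.91 to 7.36, 7.20, 8.25 and 7.21 (change -0.56). H3C12 and H3C1 had changes of -0.56 and -0.48. In week 1 these genes hardly differed, and week 3 lay above the other weeks in both groups of the 2 H2B genes.

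The same held for the whole list: its median difference was -0.0053 in week 1, -0.39 in week 2, -0.52 in week 3 and -0.40 in week 4. The count called lower was 51 without week 1, 4 without week 2, and none without week 3 or week 4. Of all 11947 genes, 1240 were called lower without week 1 and 103 without week 2. In RPFs 24 of 53 histone genes were called lower, against 4.62% of all RPF genes, with a median of -0.28. In the other lines 36 (shEIF2B1) and 54 (shEIF2B4) of the 58 were called lower, against 16.8% and 16.3% of all genes, with medians of -0.38 and -0.60. The interaction test called a difference from shCTRL for 1 and 3 of the 58, against 3.47% and 5.4% of all genes.

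Other genes of the cell cycle lay below 0 with smaller changes. Of 39 mitosis genes 5 were called lower (12.8%, against 2.18% of all genes) and none higher, with 35 below 0 and a median of -0.18. They included UBE2C, the ubiquitin-conjugating enzyme of the anaphase-promoting complex (-0.40), the proliferation marker MKI67 (-0.39), the centromeric histone CENPA (-0.35) and CDCA3 (-0.31). Of 41 DNA replication genes 3 were called lower (7.32%): ORC6 of the origin recognition complex (-0.46), the sliding clamp PCNA (-0.29) and the clamp loader subunit RFC4 (-0.28). The median of that list was -0.14. Weekly medians of the mitosis list were -0.029, -0.24, -0.28 and -0.12, and those of the replication list 0.099, -0.36, -0.18 and -0.14. Neither list had a called member without week 3 or without week 4.

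Genes for mitochondrial proteins lay mostly below 0, and few of them passed the test. Of 79 mitochondrial ribosomal proteins, 75 had a change below 0, with a median of -0.15, and 3 were called lower (3.8%, against 2.18% of all genes): MRPS17 (-0.31), MRPS18C (-0.30) and MRPL36 (-0.30). Without week 1, 47 were called lower, and so were 1240 of all 11947 genes. The list's median was 0.045 in week 1 and between -0.27 and -0.21 in the other weeks. Of 80 nuclear-encoded subunits of oxidative phosphorylation 3 were called lower, with a median of -0.074. These were NDUFS3 of complex I, cytochrome c (CYCS) and UQCRQ of complex III.

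NDUFS3 stood apart: it went from 9.46, 9.61, 9.53 and 9.63 to 9.23, 9.00, 9.02 and 9.12, without overlap, a change of -0.46 (standard error 0.076, limma adjusted p = 0.0293), and it was called under 9 of the 11 alternatives. In RPFs it differed by -0.57 (limma adjusted p = 0.0244). HSPE1, the mitochondrial co-chaperonin, had a change of -0.43 (limma adjusted p = 0.0876). No mitochondrially encoded gene was among the genes listed, so mitochondrial transcripts were not analysed here. Of 37 ribosome biogenesis genes 2 were called lower (5.41%, against 2.18% of all genes), NOP56 (-0.41) and LYAR (-0.35), and 33 lay below 0.

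Cytosolic ribosomal proteins differed between the 2 readouts. In total RNA 1 of 84 (1.19%, against 2.18% of all genes), RPL39L (-0.29), was called lower, and the median was -0.0066. In RPFs of the same lysates 45 of 82 were called lower, against 4.62% of all RPF genes, with a median of -0.40. The RPF calls rested on single weeks: between 3 and 4 genes were called over the whole table without week 2, 3 or 4. The 2 tables were normalized separately, and the difference between readouts was not tested.

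**Figure D3:**
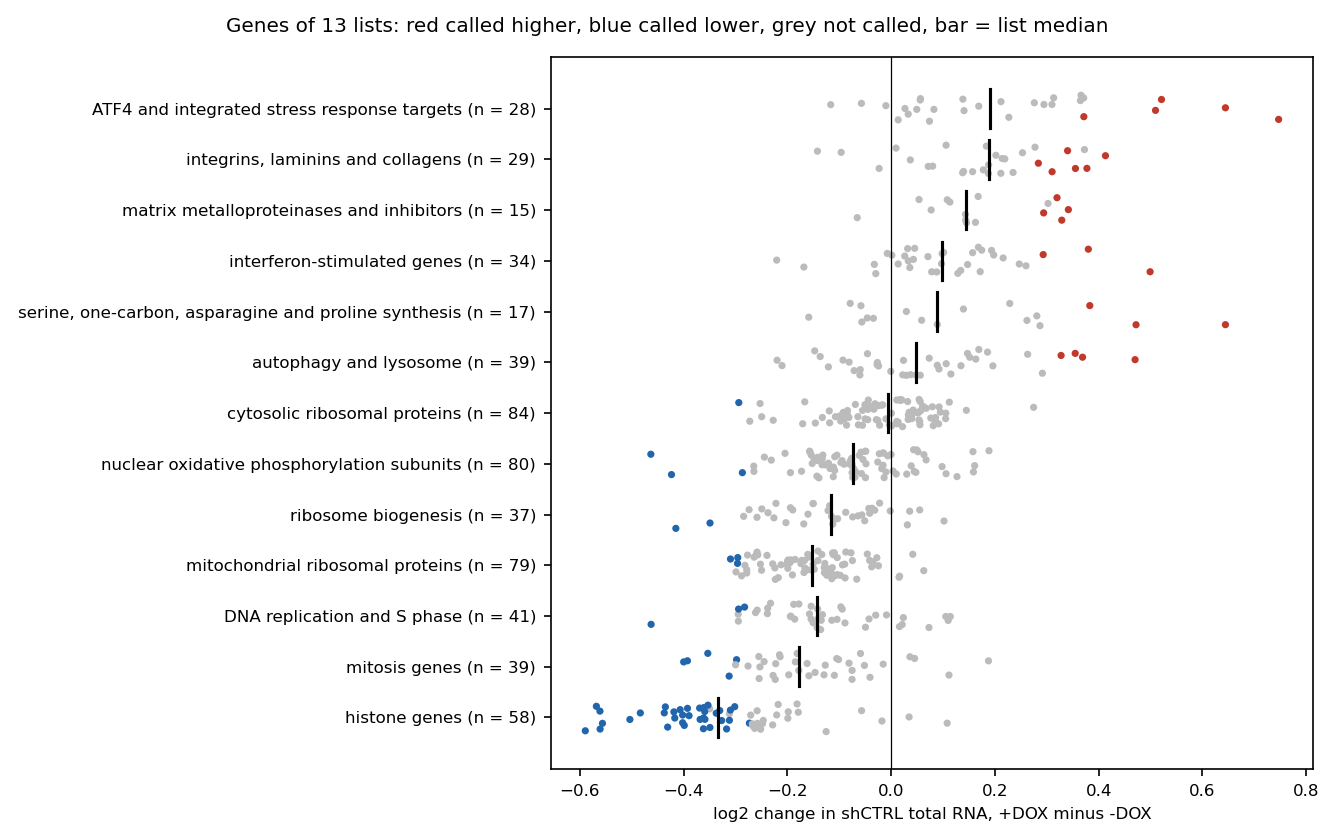
Log2 change on DOX in shCTRL total RNA (x axis) of each gene in 13 lists (y axis, n genes measured); red points were called higher, blue points lower, grey points were not called, and bars mark list medians. Histone genes had a median of -0.33 with 35 of 58 called lower, and ATF4 targets a median of 0.19 with 5 of 28 called higher.

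Single genes outside these groups also fell. PNP, purine nucleoside phosphorylase, went from 9.55, 9.81, 9.69 and 9.94 to 9.47, 8.99, 8.91 and 9.32 (change -0.58, limma adjusted p = 0.0458). POLR3K, an RNA polymerase III subunit, and ARPP19, a regulator of the phosphatase PP2A at mitosis, changed by -0.49 each (limma adjusted p = 0.0398 and 0.0293). ARPP19 was at 11.75, 11.63, 11.60 and 11.80 in -DOX and 11.22, 11.41, 11.06 and 11.14 in +DOX, and week 1 moved like the others. All 3 genes fell without overlap of the groups.

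S1PR3, a receptor for sphingosine 1-phosphate, went from 8.54, 8.68, 9.58 and 8.76 to 8.22, 8.31, 8.66 and 8.02 (change -0.59, limma adjusted p = 0.0314). CLN8, a membrane protein of the endoplasmic reticulum, LDLRAD1 and the zinc finger gene ZNF485 changed by -0.51, -0.50 and -0.51. In S1PR3, CLN8, LDLRAD1 and ZNF485 the week 3 -DOX library held the highest value. EIF5AL1 (-0.55) is a near-copy of EIF5A and RGPD1 (-0.53) belongs to the near-identical RGPD genes, so their reads may be shared with their copies. RP1-34B20.21 (-0.58) is a transcript in the chromosome 6 histone cluster that overlaps 2 histone genes, and its value is likewise uncertain.

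**Figure D4:**
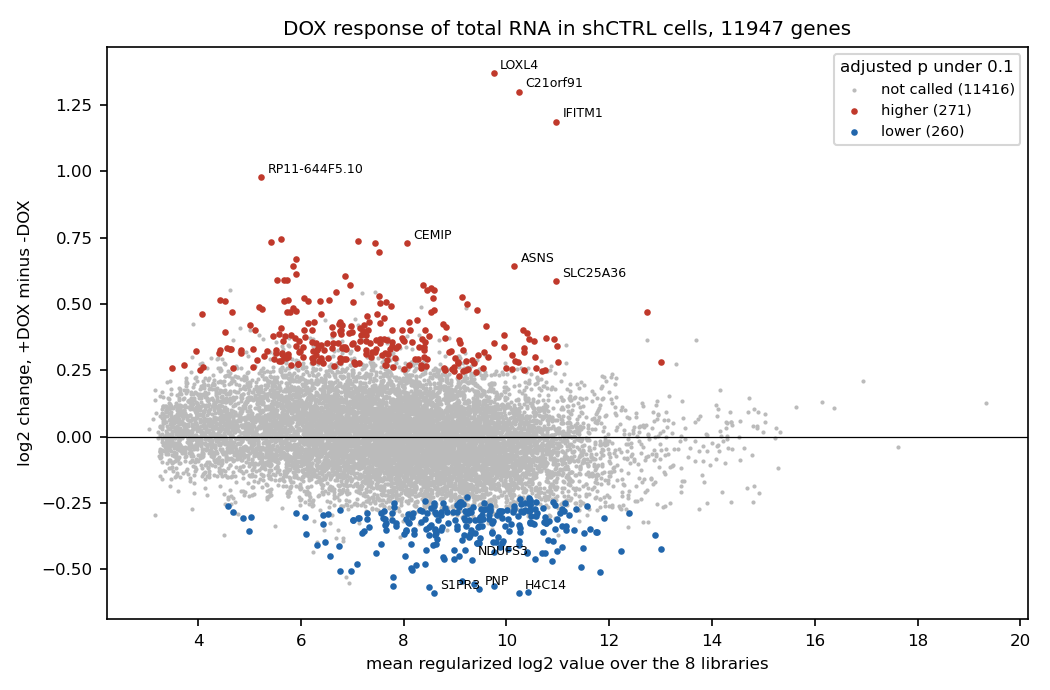
Log2 change on DOX (y axis) against the mean regularized log2 value over the 8 shCTRL total RNA libraries (x axis) for 11947 genes; red were called higher, blue lower. LOXL4, C21orf91 and IFITM1 lie above 1, and raised genes sit at lower levels than lowered ones.

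Genes called higher and genes called lower sat at different levels and lengths. Level enters the test through its mean-variance trend, and length does not. The median level was 7.21 for genes called higher, 9.30 for those called lower and 7.90 over all genes. Of the 25% of genes with the lowest levels 86 were called higher and 9 lower, and of the 25% with the highest levels 40 and 137. In weeks 2 to 4 the +DOX values spread less over genes than the -DOX values. After quantile normalization, which equalizes the spread, 19 genes were called higher and 14 lower. Whether the spread bears on this pattern was not tested. Transcripts of genes called lower were shorter, with a median of 1482 bases (quartiles 808 and 2529), against 3132 for genes called higher and 2669 over all genes (GENCODE v29 lengths, 97.2% of genes matched). Without histone genes the median of the genes called lower was 1647 bases. Median GC content was 49.9% for genes called higher, 46.9% for genes called lower and 49.0% over all.

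Several groups held few or no called genes. The 14 genes for eIF2B, eIF2 and the eIF2α kinases had none. EIF2B1 differed by -0.21 (limma adjusted p = 0.165) and EIF2B4 by -0.088 (0.602). The adjusted p values of EIF2B2, EIF2B3 and EIF2B5 were 0.349, 0.600 and 0.510. No listed gene was called in glycolysis (23 genes), fatty acid synthesis (15), iron handling (17), NF-kappaB and chemokines (16) or AP-1 and immediate early genes (29). The same held for the lists of p53 targets (20), cytosolic heat shock (19), mitochondrial translation factors (30) and metallothioneins and zinc transporters (17). The 15 small RNA processing genes also had none, TNRC6B coming closest with a difference of 0.24 (limma adjusted p = 0.118). The p53 list is not complete: outside it, the known p53 targets SFN, PMAIP1 and TRIAP1 were called lower and GDF15 higher. The calls in hypoxia (ADM 0.33 and INSIG2 -0.23) and cholesterol synthesis (TM7SF2 0.33 and IDI1 -0.27) went both ways. A single gene was called in each of the endoplasmic reticulum list (EDEM1, 0.25), the NRF2 list (TKT, 0.28), the WNT list (NOTUM, 0.37) and the drug metabolism list (SULT1A1, 0.38). Of 415 ZNF genes 5 were called lower (1.2%, against 2.18% of all genes) and none higher.

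Many of these genes were also called on DOX in the lines with an active knockdown. DOX also starts the knockdown there, so a shared call cannot be assigned to DOX or to the knockdown. The libraries of these lines are separate from those of shCTRL, although grown in the same weeks. Of the 271 raised genes 214 were also called higher in shEIF2B1 (79.0%, where 17.5% of all genes were higher) and 194 in shEIF2B4 (71.6%, against 18.1%). In both lines 173 were called higher (63.8%, against 10.7% of all genes). Of the 260 lowered genes 174, 180 and 146 were called lower in shEIF2B1, shEIF2B4 and both, and 9.24% of all genes were lower in both. Conversely, 10.2% of the genes called higher in shEIF2B1 and 8.96% of those in shEIF2B4 were called higher in shCTRL. The median change of the 271 genes was 0.35 in shCTRL, 0.46 in shEIF2B1 and 0.37 in shEIF2B4.

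Opposite calls were rare. No raised gene was called lower in shEIF2B1 and 3 were in shEIF2B4, while 6 lowered genes were called higher in each line. The interaction test called 34 of the 271 raised genes for shEIF2B1, 5 of them with the smaller response in shEIF2B1, and 48 for shEIF2B4, 13 of them smaller there. Over all genes it called 3.47% and 5.4%. EEF1A2, ASNS and FHL1 rose further in both knockdown lines by this test. CEMIP differed by 0.34 in shEIF2B1 and by 0.028 in shEIF2B4, and the shEIF2B4 response lay 0.70 below that of shCTRL (limma adjusted p of the difference = 0.0331). S1PR3, LDLRAD1 and ZNF485 were called higher in shEIF2B1, by 0.53, 0.41 and 0.44, where the difference from shCTRL had limma adjusted p values of 0.00196, 0.00210 and 0.00422. In shCTRL the week 3 -DOX library held their highest value. All these genes were picked by their changes in shCTRL, and the same shCTRL libraries enter the interaction test. Its p values are therefore not those of genes picked beforehand.

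**Figure D5:**
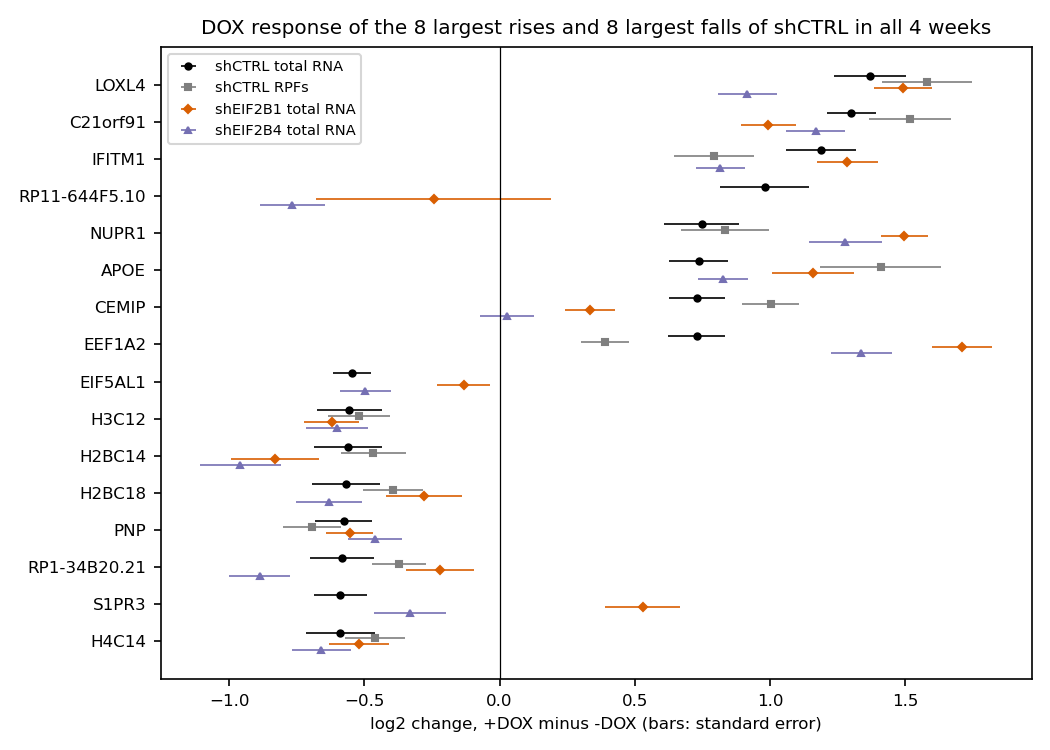
Log2 change on DOX (x axis, points with standard errors) of the 8 largest rises and 8 largest falls of shCTRL total RNA that kept 1 direction in all 4 weeks (y axis) in 4 sets of 8 libraries: shCTRL total RNA, shCTRL RPFs, shEIF2B1 total RNA and shEIF2B4 total RNA. LOXL4, C21orf91 and IFITM1 rose in all 4 sets, and S1PR3 rose in shEIF2B1 while it fell in shCTRL.

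RPFs of the same shCTRL lysates moved with total RNA. Of the 271 raised genes 254 were in the RPF table, 244 had an RPF change above 0 and 138 were called higher, against 5.23% of all RPF genes, with a median of 0.38. Of the 260 lowered genes 236 were in the RPF table, 206 had an RPF change below 0 and 89 were called lower, against 4.62% of all RPF genes, with a median of -0.25. None was called in the opposite direction. In all, 1098 RPF genes were called, and 3526 without week 1. Without week 2, 3 or 4 the RPF count was 4, 3 and 4, and without the block it was 0. The 2 readouts share their lysates, so this is not a second experiment.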

How the data were processed

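Total cytoplasmic RNA was rRNA-depleted (RiboCop), made into libraries with the CORALL kit (13 PCR cycles) and sequenced on a NextSeq 500. Per the labels and the study's methods, the authors trimmed and deduplicated reads (cutadapt 1.18, SAMtools 1.9), aligned them with Bowtie 2 to GENCODE release 38 protein-coding transcripts, estimated abundances by RSEM, and represented a gene by its most abundant transcript. The deposited values are regularized log2 values made by the authors with DESeq 2 in R 4.3.1, separately for total RNA and RPFs. Only genes that passed their filter are listed. The files hold no counts, so no count model could be run and the depth per library is unknown.

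Differences were tested with limma 3.58.1 (R 4.3.3; lmFit and eBayes with a mean-variance trend, two-sided) on the 8 libraries of a line with the week as a block. P values were adjusted by Benjamini-Hochberg over all genes of the table and called under 0.1. Differences between lines were tested as an interaction of shRNA and DOX. The scripts were tested on simulated data. Components used the 500 most variable genes, with an exact permutation test of the scores, by sign flips of pairs where week means were removed. The week block follows the labels, which state that a replicate number is a shared week. The correlation of same-week deviations from the group means was -0.044, 0.073, 0.52 and 0.60 in weeks 1 to 4, and lay between -0.43 and 0.38 for other pairs.

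Gene lists and members were chosen with earlier results of these data known. Named genes were the 15 largest called rises and falls with 1 direction in all 4 weeks, up to 4 called members of each list or the 2 of smallest p where none was called, the eIF2B subunits, ATF4, DDIT3, PPP1R15A and ATF3. Some genes that this rule names are not reported here. Positions, lengths and GC come from GENCODE release 29 on GRCh38, which is not the release the authors used, and promoters from RefSeq. The alternatives were no block, no trend, the lowest 25% of genes left out, median centring, quantile normalization, all 24 libraries in one fit, an adjusted p under 0.05 and each week left out. Tables and plots used Python 3.11.15, pandas 2.3.3 and matplotlib 3.10.9.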

Additional observations from a re-analysis of the deposited data

Results flagged for a closer look

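In 14 of 222 groups of 4 libraries, for the genes named, a single library lay far from the other 3 by Dixon's criterion. Chance alone flags about 1 group in 20. In week 1, CEMIP -DOX was low at 7.45 (others 7.77 to 7.81), PLPP1 +DOX low at 6.87 (7.24 to 7.26) and FHL1 -DOX high at 5.86 (5.26 to 5.34). INSIG2 -DOX was low at 10.31 (10.41 to 10.43) and MT1E +DOX at 12.42 (12.64 to 12.68). In week 2, PKM +DOX was low at 11.91 (12.25 to 12.28) and EIF2B1 +DOX at 8.10 (8.40 to 8.44). In week 3, NIBAN1 +DOX was high at 7.63 (7.13 to 7.20) and LCN2 -DOX at 5.89 (5.69 to 5.72). MT1X -DOX was high at 9.79 (8.72 to 8.81), MKI67 -DOX at 11.80 (10.79 to 10.94), ZNF485 -DOX at 12.95 (11.76 to 11.83) and H2BC14 +DOX at 8.25 (7.20 to 7.36). In week 4, H3C1 +DOX was low at 7.83 (8.04 to 8.07). Week 3 thus held 6 of the 14, all of them high.

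The response to DOX differed between shCTRL and a knockdown line for 38 combinations of gene and line, by the limma interaction test. Differences are knockdown line minus shCTRL, with limma adjusted p values from 8.76e-09 (LCN2 in shEIF2B4) to 0.0830 (CDH1 in shEIF2B1). The response lay higher in both lines for LCN2, a secreted siderophore-binding protein (2.77 in shEIF2B1 and 3.32 in shEIF2B4), NIBAN1 (1.65 and 1.85), ASNS (0.83 and 1.29), DDIT3 (0.91 and 1.16) and ASS1 (1.09 and 0.91). The same held for EEF1A2 (0.98 and 0.61), FHL1 (0.82 and 0.79), GDF15 (0.81 and 0.91), PPP1R15A (0.74 and 0.64) and HLA-B (0.60 and 0.62). It also held for GADD45A, a stress-induced growth arrest gene (0.46 and 0.51), and CDH1 (0.36 and 0.56). LCN2 was not called in shCTRL.

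In shEIF2B1 alone, differences were called for NUPR1 (0.75), ALDH1L2 (0.95), S1PR3 (1.12), LDLRAD1 (0.91) and ZNF485 (0.95), and below 0 for PCNA (-0.65), IDI1 (-0.56) and the targeted EIF2B1 (-0.67). In shEIF2B4 alone, differences were below 0 for RP11-644F5.10 (-1.75), CEMIP (-0.70), SPARC (-0.58), MKI67 (-0.50), TARS2, the mitochondrial threonyl-tRNA synthetase (-0.38), and the targeted EIF2B4 (-0.49). A call in 1 line was not tested against the other line. All of these tests use the same shCTRL libraries, by whose changes many of these genes were named.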

How the results depend on the processing

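No block, no trend, all 24 libraries in one fit, the stricter threshold and the lowest 25% left out keep each gene's estimate as it is, so they could not turn a direction. Under median centring, quantile normalization and each week left out, all 531 called genes kept their direction. These use the same libraries, so this is no independent check. The counts moved far more. Without the replicate block, 9 genes were called in shCTRL total RNA and 0 in RPFs, and 191 (shEIF2B1) and 349 (shEIF2B4) for the difference from shCTRL. At this setting unadjusted p was under 0.05 for 1581 genes of shCTRL total RNA. Quantile normalization gave 33 genes and an adjusted p under 0.05 gave 41. Leaving out 1 week gave 3 to 2452 genes, 3 to 3526 in RPFs, 2585 to 4830 in shEIF2B1 and 2432 to 4139 in shEIF2B4. For the differences it gave 111 to 645 (shEIF2B1) and 217 to 496 (shEIF2B4). The first component did not pass 0.05 under any setting, and with the mean of each week removed 4 pairs cannot (exact p = 0.125).

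For ATF4 targets the count was 0 without the replicate block, 1 after quantile normalization, 2 at 0.05, and 0 to 15 with 1 week left out. For mitosis genes it was 0, 0 and 0 at these settings, 3 without the trend, and 0 to 21. For histones it was 0, 1 and 1, 16 with all 24 libraries, and 0 to 51. For integrins, laminins and collagens it was 0, 0 and 0, and 0 to 18. The highest of these counts came without week 1, where 1212 of all 11947 genes were called higher and 1240 lower. Of the genes not called, ATF3 ranged from -0.12 to 0.18 and DDIT3 from -0.088 to 0.019 with 1 week left out, and both changed sign without week 2 (limma adjusted p = 0.337 and 0.911). The causes were not tested, beyond that fewer libraries entered when a week was left out. Depth limits could not be given, since the files hold no counts.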
